A study of Mus musculus with 2 samples.

Results

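The miR-15/16 family with miR-322 and miR-503 was followed from the 3rd mammary gland to the neighbouring flank of the mouse embryo. The family was taken as 7 mature miRNAs, mmu-miR-15a, mmu-miR-15b, mmu-miR-16, mmu-miR-195, mmu-miR-497, mmu-miR-322 and mmu-miR-503, by their names on the array and not by their signals. All 7 were found among the 696 mouse miRNAs of the array, and all 7 were detected in both regions. At embryonic day 13.5 (E13.5) the mammary bud is an epithelial ball that has sunk into the mesenchyme below the skin, and the study asked which miRNAs are expressed there. The inter mammary gland region, that is the flank from the 3rd to the 4th gland, served as the other region. RNA came from untreated ICR embryos, and 100 ng of total RNA per region was labelled with Cy3 and hybridised to 1 array. Both regions thus shared strain, stage and lack of treatment, and their arrays were part of the same slide and the same scan. The labels and methods do not say how many embryos went into an array, and neither region was separated into epithelium and mesenchyme.

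MiRNAs lower the output of messenger RNAs that pair with the seed, the bases near the 5′ end of the miRNA, so that miRNAs with one seed can act on overlapping targets. The miR-15/16 family is known as a brake on proliferation, since its targets include cyclins, cyclin-dependent kinases and other genes of the passage from G1 to S phase, together with the survival gene Bcl2. MiR-15a and miR-16 are lost with their locus in many chronic lymphocytic leukaemias, miR-195 and miR-497 have been linked to the exit of heart and muscle cells from the cell cycle, and miR-322 and miR-503 to cell cycle arrest in differentiating muscle cells.

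The mature sequences show what ties the family together. They are given from 5′ to 3′ as RefSeq lists them, with coordinates of build GRCm38.p6, and the capitals mark the seed, bases 2 to 8. The array uses older names, and the RefSeq names of the same strands are miR-15a-5p, miR-15b-5p, miR-16-5p, miR-195a-5p, miR-497a-5p, miR-322-5p and miR-503-5p.
mmu-miR-15a (Mir15a, chr14:61632075-61632096, minus strand): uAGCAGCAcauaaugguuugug
mmu-miR-16 (Mir16-1, chr14:61631936-61631957, minus strand): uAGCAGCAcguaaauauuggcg
mmu-miR-15b (Mir15b, chr3:69009775-69009796, plus strand): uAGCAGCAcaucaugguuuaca
mmu-miR-16 (Mir16-2, chr3:69009918-69009939, plus strand): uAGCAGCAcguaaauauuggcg
mmu-miR-497 (Mir497, chr11:70234730-70234751, plus strand): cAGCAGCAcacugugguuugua
mmu-miR-195 (Mir195a, chr11:70235062-70235082, plus strand): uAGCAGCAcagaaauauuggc
mmu-miR-322 (Mir322, chrX:53054306-53054327, minus strand): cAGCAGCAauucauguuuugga
mmu-miR-503 (Mir503, chrX:53054027-53054049, minus strand): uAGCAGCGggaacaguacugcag
MiR-15a, miR-15b, miR-16, miR-195, miR-497 and miR-322 have the seed AGCAGCA, and miR-503 has AGCAGCG, which differs in its last base.

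The 8 genes stood in 4 pairs. Mir15a and Mir16-1 start 139 bases apart, counted between their mature sequences, in the long non-coding gene Dleu2. Mir15b and Mir16-2 are 143 bases apart within Smc4, which encodes a subunit of condensin. Mir497 and Mir195a are 332 bases apart with no host gene listed, and Mir322 and Mir503 are 278 bases apart in the long non-coding gene C430049B03Rik. Mature miR-16 is the same molecule from both of its genes, so an array signal cannot say which pair it came from.

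The seed was rare among mouse miRNAs. AGCAGC at bases 2 to 7 was found in 11 of 1679 mature names of the RefSeq table, or 0.655%, AGCAGCA at bases 2 to 8 in 10 of them, and AGCAGCG in 1. The 4 holders that are not members, miR-195b, miR-6342, miR-6353 and miR-6419, had no probes on the array. Beyond the seed the members ranged from near copies to distant relatives. MiR-16 and miR-195 match at 19 of 21 positions compared from the 5′ end and miR-15a and miR-15b at 18 of 22, while miR-322 and miR-503 match at 11 of 22. Whether a probe also bound a near-identical member was not tested.

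Each member had 2 probes, and each probe was printed at 10 places, so a member was read from 20 spots per array. Of the 140 member spots of an array, 137 (gland) and 134 (inter mammary gland region) remained once outlier spots were removed, and all of these were well above background. None of the miRNA spots was saturated. The intensities of the gland array were multiplied by 0.914, a factor that made the 75th percentile equal over the 555 probes that both arrays detected (786 against 719 before scaling). Values called scaled below carry this factor. Errors are over the spots of 1 array and measure the printing and reading of that array. With 1 array per region there is no error between embryos and no test. How precise a ratio can be is limited by this number of arrays. In bulk tissue, fewer cells that make a miRNA and less of it per cell cannot be told apart.

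The regions carried the RNA of several cell types. The 4 miRNAs of striated muscle were all lower in the 3rd mammary gland by more than 1.5-fold, with log2 ratios of gland over inter mammary gland region from -1.43 to -1.12 and a summed scaled intensity of 1504 against 3610. The 7 miRNAs of epithelium were all detected, with ratios from -0.31 (miR-203) to 0.51 (miR-200a), a median of 0.34 and sums of 10010 and 9530. The 3 miRNAs of red blood cells ran from -0.39 (miR-486) to 0.44 (miR-451), with sums of 5320 and 3955. The neuronal miR-9 and miR-124 were not detected in either region. Epithelial miRNAs were thus measured in both regions, and muscle miRNAs in the gland sample too. The part that these cell types play in the family's ratios was not tested.

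None of the 7 members differed between the regions by 1.5-fold. Among all 284 miRNAs detected on both arrays 32, or 11.3%, did, with 26 lower and 6 higher in the gland. A share of 11.3% would correspond to less than 1 of 7 members, so the count of 0 does not set the family apart. Of the members 4, or 57.1%, had a ratio above 1, against 57.7% of all miRNAs, and without scaling 5 members did. The log2 ratios of the members ran from -0.19 to 0.18 with a median of 0.048, and the median of all 284 was also 0.048. The middle of all the ratios, from the 25th to the 75th percentile, spanned -0.14 to 0.22, and the ratios of miR-15b and miR-322 lay below it. Without the scaling, whose log2 factor was -0.13, the 25th percentile lay just below 0, so just under 75% of all miRNAs were above 1.

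**Figure D1:**
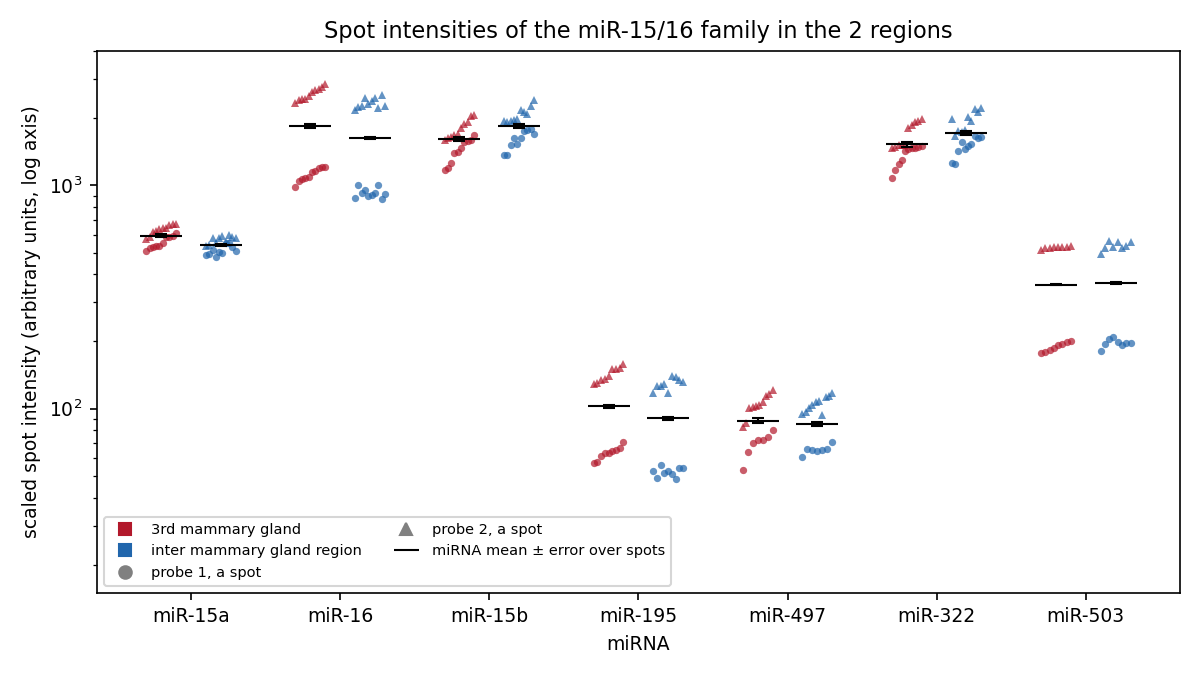
Scaled spot intensity (arbitrary units, log axis) of the 7 members, red for the 3rd mammary gland and blue for the inter mammary gland region. A circle is 1 spot of a member's first probe and a triangle 1 spot of its second, spread sideways only for display, and the bars are the mean of the miRNA ± its error over spots. Heights of different miRNAs come from different probes and cannot be compared, but within each miRNA the red and blue spots lie close together, and those of miR-16 and miR-195 sit a little higher in red and those of miR-15b and miR-322 a little higher in blue.

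The pair of Mir15a and Mir16-1 gave ratios above 1 for both products. MiR-15a had a scaled intensity of 595 in the gland against 541 in the inter mammary gland region, a log2 ratio of 0.14 ± 0.024, or 1.10-fold. The first of its probes read 608 ± 39.5 (SD, n = 10 spots) before scaling against 511 ± 26.2, and the second 694 ± 35.6 against 571 ± 22.6. Its log2 ratio was 0.12 on the first probe and 0.15 on the second. Spots printed at the same place on both arrays were brighter in the gland at 20 of 20 places, with log2 ratios from 0.038 to 0.28. All places of miR-15a thus went the same way, although the intensities of its spots overlapped between the regions.

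MiR-16 had a scaled intensity of 1842 against 1629, a log2 ratio of 0.18 ± 0.029, or 1.13-fold. Its probes read 1221 ± 84.2 and 2810 ± 184 before scaling in the gland against 927 ± 47.7 and 2332 ± 122. They gave log2 ratios of 0.27 and 0.14, a gap of 0.13. The spots of miR-16 were brighter in the gland at 19 of 20 places, from -0.021 to 0.47, with 1 place on the other side of 0. The log2 ratios of miR-15a and miR-16 thus differed by 0.041 ± 0.038, less than 2 errors, with a median of 0.16 for the pair.

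The pair of Mir15b and Mir16-2 held ratios from both ends of the family. MiR-15b, which shares its first 11 bases with miR-15a, had a scaled intensity of 1612 in the gland against 1840 in the inter mammary gland region, a log2 ratio of -0.19 ± 0.045, or 0.876-fold. Its probes read 1568 ± 194 and 1961 ± 189 before scaling in the gland against 1604 ± 156 and 2076 ± 164 (n = 10 spots each), and gave -0.16 and -0.21. The gland spot of miR-15b was the brighter one at 0 of 20 places after scaling and at 3 of 20 before it. The miR-15b ratio was below 0 in all 15 alternative treatments of the data, from -0.25 to -0.028, and was the lowest of the 7 members in each of them. These alternatives are not 15 separate checks. The scaled value table repeats the scaled total signals, and the software's detection call and leaving out dim miRNAs keep the main value. A change of the scaling factor alone moves all ratios alike and cannot alter the order of the members. For the members, the total signals came to such a common shift too. So did the rule that every spot of a probe be well above background.

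MiR-15b differed in ratio from both miR-16 and miR-15a. The log2 ratio of miR-16 exceeded that of miR-15b by 0.37 ± 0.054, so the median of the pair, -0.0070, describes neither product, and it was above 0 under 7 of 15 alternatives. Between the near copies miR-15a and miR-15b the difference was 0.33 ± 0.051, or 1.25-fold. This difference does not contain the scaling factor, and it stayed between 0.22, with quantile normalization, and 0.36, with the brightest probe only. The spot ratios of miR-15a and miR-15b did not overlap, the lowest being 0.038 for miR-15a and the highest -0.018 for miR-15b. It was 1 of 5 such pairs among the 21 pairs of members, a count that was not compared with pairs of other miRNAs.

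**Figure D2:**
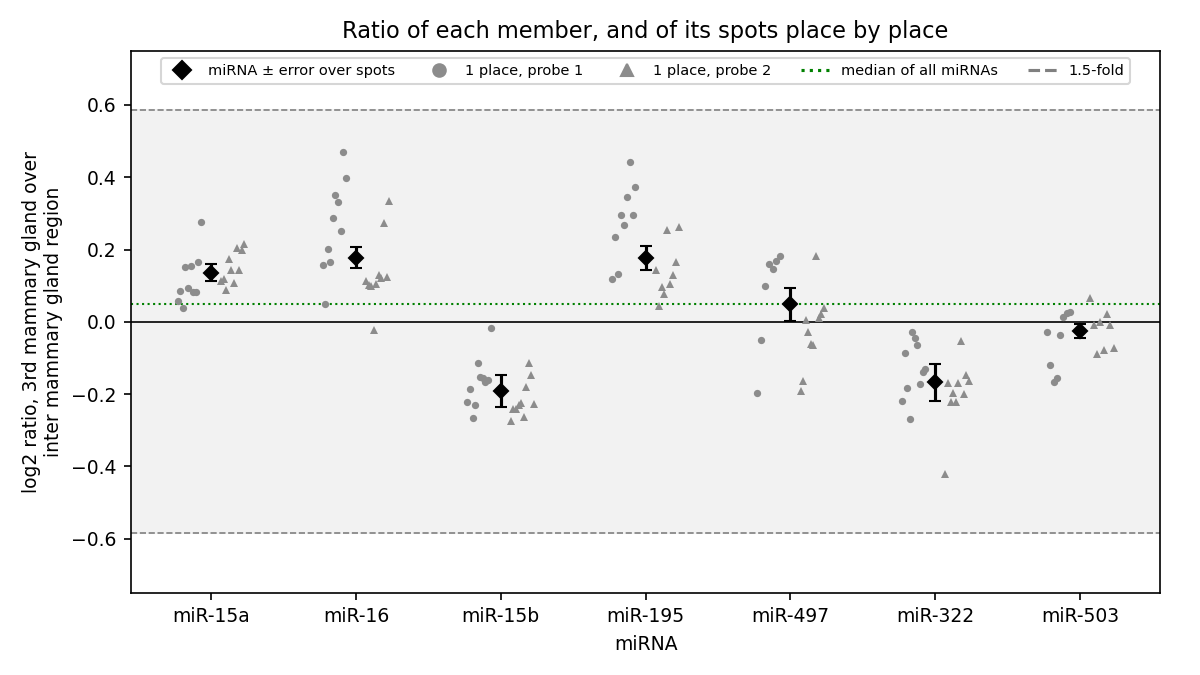
Log2 ratio of the 3rd mammary gland over the inter mammary gland region for each member (diamond ± error over spots) and for each place that carried a usable spot on both arrays (grey, circles for the first probe and triangles for the second). All diamonds lie inside the dashed lines at 1.5-fold, those of miR-15a, miR-16 and miR-195 above the dotted median of all miRNAs (0.048) and those of miR-15b, miR-322 and miR-503 below it.

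The pair of Mir497 and Mir195a gave a ratio above 1 for miR-195 and, after scaling, none of clear direction for miR-497. MiR-195 had a scaled intensity of 103 in the gland against 90.7 in the inter mammary gland region, a log2 ratio of 0.18 ± 0.034, or 1.13-fold. Its probes read 69.0 ± 4.60 and 155 ± 11.1 (n = 10 spots) before scaling in the gland against 52.2 ± 2.62 and 129 ± 8.32 (n = 9 spots), and gave 0.27 and 0.14. The spots of miR-195 were brighter in the gland at 18 of 18 places, from 0.045 to 0.44. On the inter mammary gland array 2 of its spots were outliers, and with outlier spots kept the log2 ratio was 0.29 ± 0.11, with a larger error.

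MiR-497 had a scaled intensity of 88.3 against 85.4, a log2 ratio of 0.048 ± 0.046, or 1.03-fold. Before scaling its probes read 79.8 ± 10.1 in the gland against 65.7 ± 2.94 (n = 10 and 7 spots), and 113 ± 13.1 against 105 ± 8.38 (n = 10 spots). Both probes were thus higher in the gland before scaling, and after it they gave log2 ratios of 0.15 and -0.020. The gland spots of miR-497 were brighter at 10 of 17 places after scaling and at 14 of 17 before it, so this count depends on the scaling. The 0.17 between its probes was the widest such gap of the 7 members. The miR-497 ratio was above 0 in 13 of 15 alternatives, up to 0.26. With the brightest probe only it turned to -0.020. It was -0.013 when every spot of a probe had to be well above background. All kept spots of miR-497 met that rule, so the change came through the scaling, which moved every member alike. The ratio of miR-195 exceeded that of miR-497 by 0.13 ± 0.057, with a median of 0.11 for the pair, although their probes overlapped.

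The pair of Mir322 and Mir503 gave ratios below 1 for both products after scaling. MiR-322 had a scaled intensity of 1528 in the gland against 1716 in the inter mammary gland region, a log2 ratio of -0.17 ± 0.051, or 0.891-fold. Its probes read 1488 ± 161 and 1857 ± 236 before scaling in the gland against 1491 ± 147 and 1940 ± 204 (n = 10 spots each), and gave -0.13 and -0.19. The gland spot of miR-322 was the brighter one at 0 of 20 places after scaling and at 5 of 20 before it. The ratio of miR-322 was below 0 in 14 of 15 alternatives and 0.026 with quantile normalization.

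MiR-503, the member with the other seed, had a scaled intensity of 359 against 366, a log2 ratio of -0.025 ± 0.018, or 0.983-fold. Its probes read 210 ± 11.3 and 577 ± 6.06 before scaling in the gland (n = 9 and 8 spots) against 199 ± 10.1 and 532 ± 24.5 (n = 9 and 10 spots), and gave -0.055 and -0.014. The gland spots of miR-503 were brighter at 5 of 16 places after scaling and at 14 of 16 before it, so the direction of miR-503 rests on the scaling. Its ratio was above 0 in 5 of 15 alternatives, up to 0.13. The ratio of miR-503 exceeded that of miR-322 by 0.14 ± 0.055, and the median of the pair was -0.096 and turned to 0.034 without scaling, 0.063 with the percentile of all probes and 0.022 with quantile normalization.

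In order of their ratios the members ran miR-195, miR-16, miR-15a, miR-497, miR-503, miR-322 and miR-15b. Of the 6 steps between neighbours in this order, 1 was larger than 2 errors, that from miR-503 to miR-322. Of all 21 pairs, 15 differed by more than 2 errors over spots, 13 had probe ratios that did not overlap, and 5 had spot ratios that did not overlap. These 5 set miR-195, miR-16 or miR-15a against miR-322, and miR-195 or miR-15a against miR-15b. MiR-322, whose seed is that of miR-15a and miR-16, thus lay beside miR-15b in ratio, and miR-503 lay between. The counts of pairs were not made for other miRNAs, so none was read as a trait of the family. The errors treat the spots of the 2 arrays as unpaired. With spots paired by place more of these steps could exceed 2 errors, which was not tested. The errors cover spots only, and how far these pairs would differ between embryos cannot be read from 1 array per region.

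**Figure D3:**
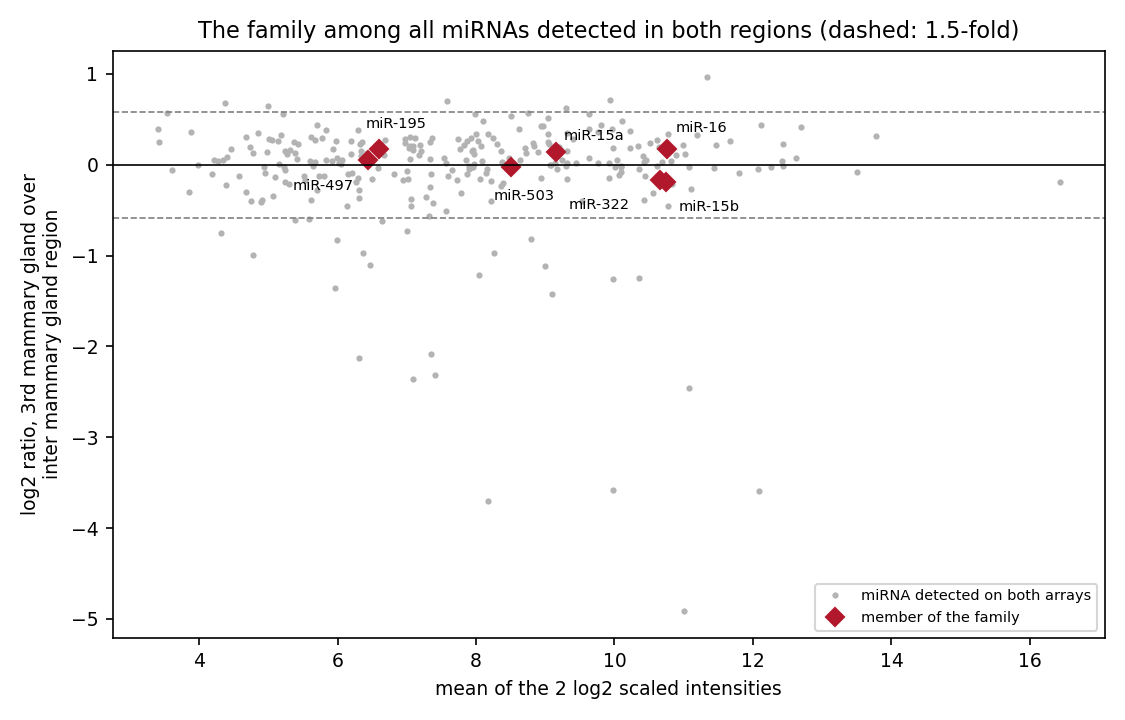
Log2 ratio of the 3rd mammary gland over the inter mammary gland region against the mean of the log2 scaled intensities, for the 284 miRNAs detected on both arrays (grey) and the 7 members (red diamonds). Dashed lines mark 1.5-fold. The members lie within the band around 0 that holds most miRNAs, at both low and high intensity, while single miRNAs fall to -4.91.

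The passenger strands come from the other arm of the same hairpins and are mostly degraded when the guide strand is kept. Of the 9 listed, the array carried 5, miR-15a*, miR-15b*, miR-16*, miR-322* and miR-503*. MiR-15a*, miR-16* and miR-503* had no spot well above background in either region. MiR-15b* was read by 1 of its 4 probes, at 45.9 ± 5.89 before scaling in the gland (n = 4 spots) against 45.2 ± 4.12 in the inter mammary gland region (n = 5 spots), with a log2 ratio of -0.11 ± 0.11 on that probe. MiR-322*, or miR-322-3p, was detected by 2 of its 4 probes. They read 336 ± 20.2 and 55.2 ± 4.43 before scaling in the gland against 264 ± 15.9 and 38.7 ± 5.72 in the inter mammary gland region (n = 5 spots each).

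The arms of the Mir322 hairpin differed in ratio. MiR-322* is shown with its seed in capitals, which is not that of the guide.
mmu-miR-322* (Mir322, chrX:53054269-53054289, minus strand): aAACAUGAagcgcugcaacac
The log2 ratio of miR-322* was 0.26 ± 0.055, or 1.19-fold, over all 4 probes, and 0.22 and 0.38 on the detected ones. It exceeded that of miR-322 by 0.42 ± 0.075, a difference that does not contain the scaling factor. Beside this stands a trend of the arrays, that of a miRNA's probes the dim one tended to give the higher ratio. Among miRNAs with 2 detected probes the dimmer one did so in 140, or 68.0%, with a median difference in log2 ratio, dimmer minus brighter, of 0.048, and among the 7 members it did so in 5 with a median of 0.061. The part of this trend in the difference between the arms was not tested.

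On the X chromosome Mir322 and Mir503 lie in a run of miRNA genes, and the other products of the run gave a reading of the same stretch that does not use the family's probes. MiR-351, from the same long non-coding gene, has another seed, CCCUGAG, which it shares with miR-125a-5p and miR-125b-5p among others.
mmu-miR-351 (Mir351, chrX:53053315-53053338, minus strand): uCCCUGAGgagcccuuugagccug
Of the 7 listed neighbours 6 were detected on both arrays, and miR-450a-3p was not detected on either. MiR-450a-5p had a scaled intensity of 493 in the gland against 426 in the inter mammary gland region, a log2 ratio of 0.21 ± 0.016. MiR-351 had 90.3 against 82.3, a log2 ratio of 0.13 ± 0.030. MiR-450b-5p, at 43.8 against 40.1, had 0.13 ± 0.10, and its probes ran from -0.078 to 0.31. These 3 had ratios above 1, while the remaining neighbours lay on both sides of it after scaling. Without scaling all 6 were above 1, as were just under 75% of all miRNAs. MiR-542-5p had 0.048 ± 0.051, miR-542-3p -0.029 ± 0.031 and miR-450b-3p -0.11 ± 0.052.

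With miR-322, miR-503 and miR-322* this made 9 products of the run, 5 with a ratio above 1 and 4 below, from -0.17 for miR-322 to 0.26 for miR-322*, with a median of 0.048. Without scaling 8 of the 9 were above 1 and only miR-322 was below. Of all miRNAs, 57.7% were above 1 after scaling and just under 75% without it, so neither count was read as a trait of the run. None of the 9 passed 1.5-fold. MiR-322* exceeded the next highest, miR-450a-5p, by 0.046 ± 0.057, and miR-322 lay below the next lowest, miR-450b-3p, by 0.060 ± 0.073, so the order at either end was not resolved beyond the error over spots.

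**Figure D4:**
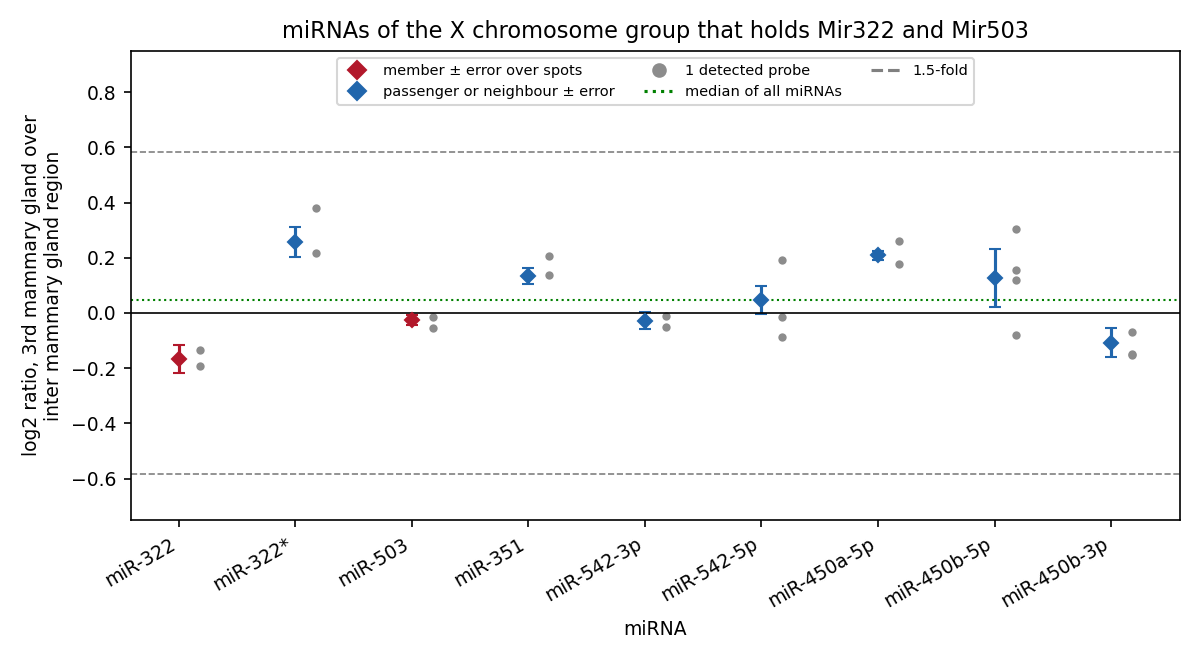
Log2 ratio of the 3rd mammary gland over the inter mammary gland region for 9 products of the miRNA genes around Mir322 and Mir503, with members in red, the passenger strand and the neighbours in blue, error bars over spots, and each detected probe in grey. The guide strand of Mir322 stands at -0.17 and its passenger strand at 0.26, each within the error over spots of its nearest neighbour in ratio.

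Other miRNAs known for their part in growth were read in the same way. Of 12 listed miRNAs of the growth-promoting clusters of miR-17, miR-106a and miR-106b, 11 were on the array and 10 were detected on both, with 5 ratios above 1 and 5 below, from -0.15 (miR-18a) to 0.19 (miR-93) and a median of 0.015. Without scaling 9 of these 10 were above 1. Of 12 growth-restraining miRNAs of the let-7 and miR-34 families, 11 were detected on both arrays, with 5 ratios above 1 and 6 below, from -0.46 (let-7i) to 0.24 (let-7e) and a median of -0.043, a wider range than that of the members. Without scaling 8 of these 11 were above 1, and miR-34c was detected in the gland alone. Of all miRNAs detected on both arrays, 57.7% were above 1 after scaling and just under 75% without it. None of either list passed 1.5-fold. The miRNAs nearest to the family's median in ratio were miR-665, miR-301a and miR-542-5p, at 0.049, 0.049 and 0.048, a likeness over 2 arrays only.

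The scaling set the level of these small ratios. Without scaling the median of all 284 miRNAs was 0.18, with the percentile of all probes 0.21, with quantile normalization 0.17 and with the software's total signals 0.14. The split of miRNAs past 1.5-fold then moved from 6 higher and 26 lower to 15 and 23, 19 and 22, 14 and 22, and 14 and 24. Relative to the median of all miRNAs under the same treatment, miR-15b, miR-322 and miR-503 lay below it and miR-195, miR-16 and miR-15a above it in each of these 4. Without scaling and with the percentile of all probes this was fixed in advance, since both shift every ratio alike. The total signals also moved the members alike, so with them only the median of all miRNAs could have moved against the members. Of these 4, only quantile normalization could also have changed the order of the members. Above 0 in all 15 alternatives were miR-15a, from 0.075 to 0.30, miR-16, from 0.12 to 0.38, and miR-195, from 0.12 to 0.39, and in none of the alternatives did a member pass 1.5-fold. Some of these alternatives return the main value or repeat another by construction, so the 15 are not separate checks.

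**Figure D5:**
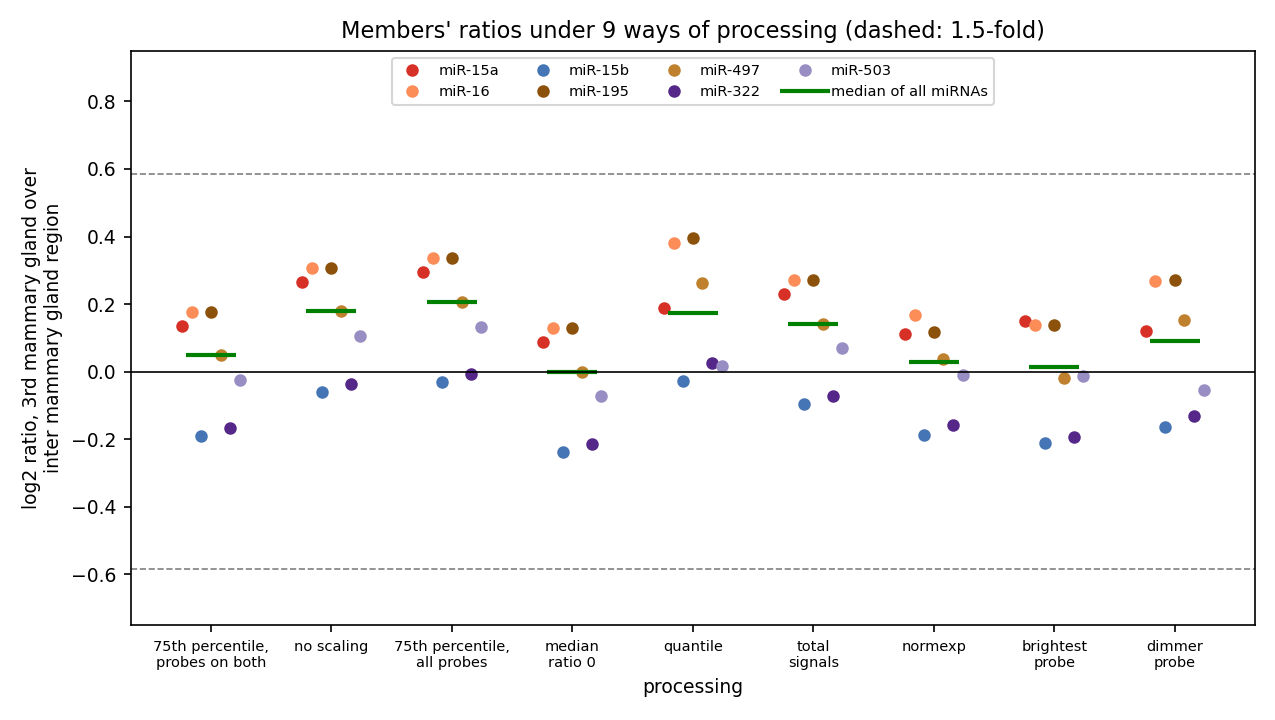
Log2 ratio of the 3rd mammary gland over the inter mammary gland region for the 7 members (coloured points) under 9 treatments of the same 2 arrays, with the median of all miRNAs as a green bar and 1.5-fold dashed. The members move up and down with the green bar, miR-15b is the lowest in each column, and miR-497, miR-503 and miR-322 each cross 0 in at least 1 of the columns. A common shift of all ratios cannot alter the order within a column.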

How the data were processed

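Both regions were measured on 1-colour Agilent miRNA arrays, 1 per region. The authors quantified the scans in Feature Extraction (10.7.3.1 in the file headers), and the deposited intensity of each spot is background-subtracted, on a linear scale, and not normalized between arrays. The methods name GeneSpring GX for normalization, without its settings. The value table equals the software's total signal for 696 of 696 miRNAs, with 0.1 for a miRNA not called detected.

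Control and outlier spots were left out (1.67% and 2.51% of miRNA spots), spots were averaged per probe, scaled to a shared 75th percentile of those probes that both arrays detected, and averaged per miRNA. A miRNA was detected where 1 probe had more than 50% of its spots well above background. No replicate array exists, so no test was made and called means past 1.5-fold. Alternatives changed the scaling, signal, background (normexp, offset 50, on the median pixel signal), detection, probe, outlier and threshold choices. The members and lists were chosen with earlier results of these data known. Named were the 7 members, all lists given, and the 3 miRNAs nearest to the members' median. The code was tested on simulated data. Python 3.11.15, numpy 2.4.6, pandas 2.3.3, matplotlib 3.10.9, R 4.3.3 and limma 3.58.1 were used.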

Additional observations from a re-analysis of the deposited data

How the results depend on the processing

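Values are log2 ratios of the 3rd mammary gland over the inter mammary gland region, in the order family median, then Mir15a/Mir16-1, Mir15b/Mir16-2, Mir497/Mir195a and Mir322/Mir503, against 0.048, 0.16, -0.0070, 0.11 and -0.096 as reported. They were 0.18, 0.29, 0.12, 0.24 and 0.034 without scaling, 0.21, 0.32, 0.15, 0.27 and 0.063 with the percentile of all probes, 0.00016, 0.11, -0.055, 0.065 and -0.14 with the median ratio of all miRNAs set to 0, 0.19, 0.28, 0.18, 0.33 and 0.022 with quantile normalization, 0.14, 0.25, 0.087, 0.21 and -0.0019 with scaled total signals and with the scaled value table, and -0.013, 0.095, -0.068, 0.052 and -0.16 with every spot of a probe well above background. The brightest probe gave -0.014 for the family, -0.037 for Mir15b/Mir16-2 and 0.059 for Mir497/Mir195a. The dimmer probe gave 0.12 for the family, 0.19 for Mir15a/Mir16-1, 0.052 for Mir15b/Mir16-2 and 0.21 for Mir497/Mir195a. The family median was 0.066 with the mean of the probes' log2 ratios and 0.010 with the median of the spot-by-spot ratios. Mir497/Mir195a was 0.078 with normexp and 0.16 with outlier spots kept. Of all miRNAs, 32 passed 1.5-fold, against 20 with normexp and 55 with the dimmer probe (22 higher and 33 lower), and 16 passed 2-fold. The count of members past the threshold was 0 in all 16 alternatives. The treatments by dimmer probe and by spot-by-spot ratio were chosen after seeing the data. A shift of the scaling factor moves every ratio alike, by construction. With the total signals, the value table and every spot of a probe well above background, the members also moved alike. For the remaining alternatives the cause was not tested. No pairing of samples was possible because there is 1 array per region, and for the same reason no replicate could be left out. All member probes were well above background on both arrays, and 3 of the 5 passenger strands on the array had no such spot.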
